A study of Mus musculus with 8 samples.

Results

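The IL-15, IL-12 and IL-27 axis was followed through 10 genes in mouse liver tumors sampled after a Toll-like receptor 7 agonist had been given. The genes were taken by symbol from the annotation of the normalized table, which holds 36670 genes, and each was joined by its Ensembl identifier to the 55536 genes of the count table. They comprise 5 cytokine genes (Il15, Il12a, Il12b, Il27 and Ebi3) and 5 receptor genes (Il15ra, Il2rb, Il2rg, Il12rb1 and Il12rb2). The tumors were HCA-1, a murine hepatocellular carcinoma (HCC) line implanted under the liver capsule of male C3H mice aged 6 to 8 weeks per the labels. On day 17, 4 mice received PFSUV-IMQ, which is imiquimod loaded into phospholipid-free small unilamellar vesicles, once i.v. at 4 mg kg−1, and 4 received saline. Each tumor was taken 3 h later for RNA-seq of the whole tissue. Neither empty vesicles nor free imiquimod was among the sequenced groups, so effects of the drug and of the vesicle cannot be told apart. Replicate numbers 1, 2, 3 and 4 name the PFSUV-IMQ tumors and 1, 3, 4 and 5 the saline tumors, and all come from 1 cell line.

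IL-15 is a cytokine that sustains natural killer (NK) cells and memory CD8+ T cells. It is held on the surface of the producing cell by IL-15 receptor alpha (Il15ra) and presented to neighboring cells that carry the IL-2 receptor beta chain (Il2rb) and the common gamma chain (Il2rg). IL-12 and IL-27 are heterodimers made of a cytokine-like chain (Il12a, also called p35, or Il27, also called p28) and a receptor-like chain (Il12b, also called p40, or Ebi3). Dendritic cells and macrophages are their best known sources, and both act on T and NK cells, IL-12 through Il12rb1 and Il12rb2 and IL-27 through Il27ra and Il6st.

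Promoter sequences of RefSeq (build GRCm38.p6, 250 bases before to 50 bases after a start site) were matched by symbol for 6 of the 10 genes, in 8 windows, because Il12a and Il15ra have 2 start sites each. No entry was matched for Il15, Il27, Il2rb and Il12rb1. The 4 windows below are shown because they belong to Il15ra, the presenting chain of IL-15, and to the receptor-like chains of IL-12 and IL-27, whose values are compared with those of their partners below. Capitals mark the single motif match in them, a kappa-B motif.
Il15ra, first start site (chr2:11705043-11705342, + strand): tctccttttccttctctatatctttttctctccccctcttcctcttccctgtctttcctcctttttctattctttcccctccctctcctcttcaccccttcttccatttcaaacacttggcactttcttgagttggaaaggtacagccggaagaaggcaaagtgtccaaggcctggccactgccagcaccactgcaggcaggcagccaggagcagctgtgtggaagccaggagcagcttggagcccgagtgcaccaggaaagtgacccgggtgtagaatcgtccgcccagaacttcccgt
Il15ra, second start site (chr2:11705462-11705761, + strand): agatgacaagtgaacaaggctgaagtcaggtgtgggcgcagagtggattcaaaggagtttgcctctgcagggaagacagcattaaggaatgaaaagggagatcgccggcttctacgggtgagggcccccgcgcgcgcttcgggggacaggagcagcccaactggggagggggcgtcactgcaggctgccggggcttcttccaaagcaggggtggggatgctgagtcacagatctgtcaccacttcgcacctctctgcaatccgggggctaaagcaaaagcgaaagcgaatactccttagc
Il12b (chr11:44399813-44400112, + strand): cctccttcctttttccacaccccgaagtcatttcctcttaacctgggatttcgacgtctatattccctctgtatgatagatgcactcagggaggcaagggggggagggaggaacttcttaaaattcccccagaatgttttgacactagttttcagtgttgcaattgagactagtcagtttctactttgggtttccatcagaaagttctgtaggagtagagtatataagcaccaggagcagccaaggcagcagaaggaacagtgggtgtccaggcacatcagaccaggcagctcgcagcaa
Ebi3 (chr17:55952373-55952672, + strand): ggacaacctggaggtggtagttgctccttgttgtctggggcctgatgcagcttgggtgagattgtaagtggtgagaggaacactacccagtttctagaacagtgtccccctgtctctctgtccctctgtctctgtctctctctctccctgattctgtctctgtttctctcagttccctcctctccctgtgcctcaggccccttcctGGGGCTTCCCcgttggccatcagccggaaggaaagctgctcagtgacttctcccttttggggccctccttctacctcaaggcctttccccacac

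On both strands of each window, with overlaps between motifs allowed, 3 motifs were searched. They were the core of the interferon-stimulated response element (ISRE, which is GAAA, any 2 bases and GAAA), the gamma-activated sequence (GAS, TTCNNNGAA) and the kappa-B motif that NF-kappaB subunits bind. In the 32851 promoter windows of all genes these occurred in 3.44%, 8.30% and 4.51%. Among the 8 windows of the axis, Ebi3 held a kappa-B match whose first base lies at position -44 from the start site. Il12rb2 held a kappa-B match at -1 and a GAS match, TTCTCAGAA, at -123. The ISRE letters were in none of the 8 windows, which says only that these letters do not occur there.

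Total counts ran from 16883911 to 27687756 per saline tumor and from 17008151 to 18527613 per PFSUV-IMQ tumor, and the limit that a count of 0 allows, 3 counts, was 0.108 to 0.178 CPM (counts per 1e6 counts in the table) per tumor. It covers counting error only. Values per gene are CPM scaled with edgeR's TMM factors. The quasi-likelihood test of edgeR was run over the 15998 genes that passed its filter on low counts, and calling a gene required a Benjamini-Hochberg adjusted p below 0.05 together with a change of over 1 on the log2 scale, up or down. Of the 10 markers of hepatocytes and HCC examined, all were counted, with Alb, the plasma protein albumin, at 2938 to 22736 CPM per tumor, whereas the HCC markers Afp and Gpc3 were low, at 5.46 and 1.23 CPM on average after saline. The PFSUV-IMQ tumor with replicate number 2 stood apart. The sum of its hepatocyte and HCC markers was 33733 CPM against 8185 to 10445 CPM in the other 3 of its group. Saline tumor 4 had a like sum of 33121 CPM. The 10 markers did not move together in PFSUV-IMQ tumor 2. Alb, Apoa1, Apob, Ttr, Serpina1a and Hnf4a were the highest of its group there, whereas Krt8, Krt18, Afp and Gpc3 were the lowest. The NK marker sum of this tumor was 103 CPM against 33.6 to 37.9 CPM in the other 3. For 8 of the 9 axis genes that could be tested, this tumor held more than the other 3 treated tumors, so values without it are given below.

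Of the 10 axis genes, 9 passed the filter on low counts, and 2 of them, Il15 and Il27, rose after PFSUV-IMQ. None fell. Both belong to the 4 cytokine genes tested, and none of the 5 receptor genes was called by edgeR. Among all genes tested, 2.26% were called higher and 0.200% lower, 2.46% in either direction. A log2 fold change above 0 was found for 8 of the 9 members and for 46.0% of all genes, and an unadjusted p under 0.05 in the upward direction for 5 of the 9 and for 8.34%. No member had such a p in the downward direction, in which 4.65% of all genes did. The 8 include Ebi3 and Il12b, whose changes were near 0 and turned to -0.38 and -0.62 without PFSUV-IMQ tumor 2. Because the members were chosen with earlier results of these data known, these counts are descriptions only. The other members had log2 fold changes from -0.02 to 1.66. Over the 4 cytokine genes the median log2 fold change was 1.23, over the 5 receptor genes 0.78, and over all genes tested -0.03. The cytokine median describes none of its genes. It lies between Il15 and Il27, at 2.51 and 2.44, and Il12b and Ebi3, at 0.03 and 0.01. As the tumors were sequenced whole, more cells of a type and more RNA per cell cannot be told apart for any of these genes.

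**Figure D1:**
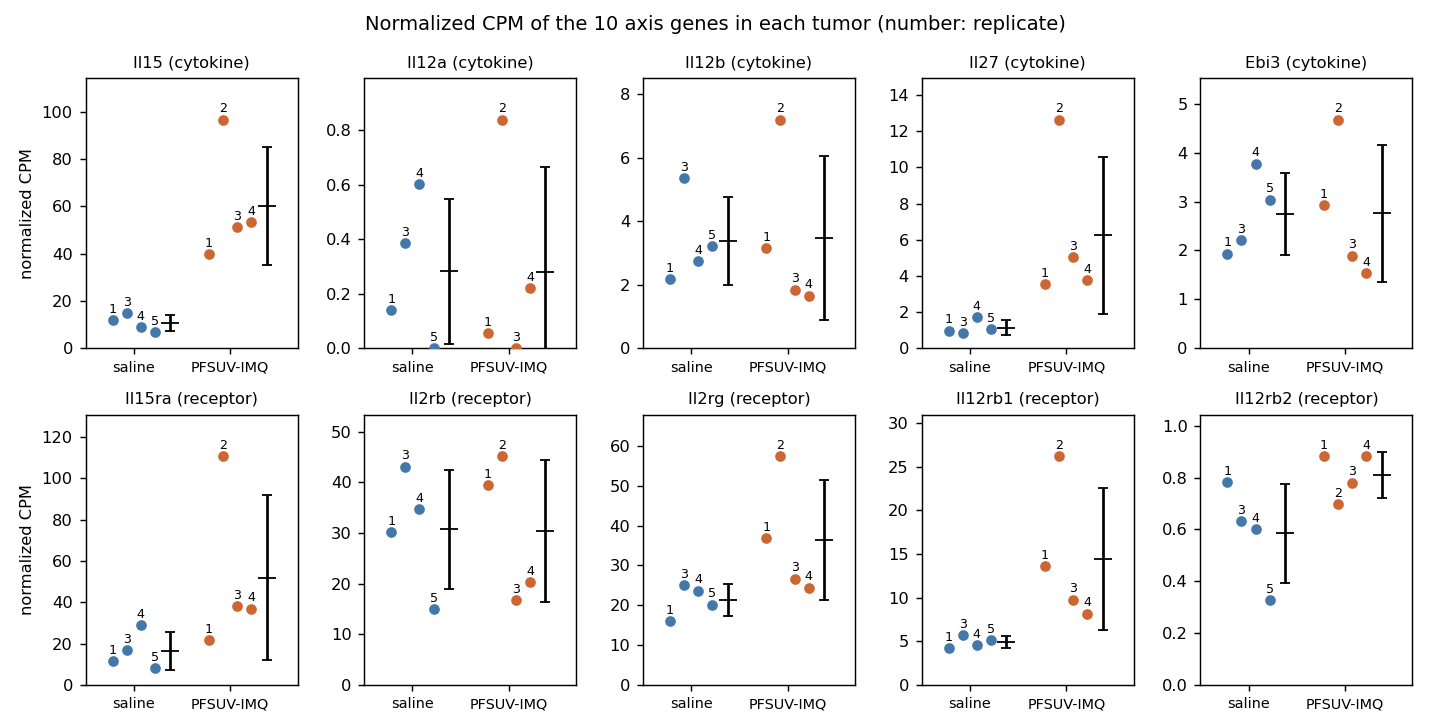
Normalized CPM (linear axes from 0) of the 10 axis genes in each saline tumor (blue) and PFSUV-IMQ tumor (orange), with the replicate number above each point and the mean ± SD of 4 tumors in black. Every PFSUV-IMQ tumor lies above every saline tumor for Il15, Il27 and Il12rb1, and the other 7 genes overlap.

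Among the 5 axis cytokine genes, Il15 (ENSMUSG00000031712, chromosome 8, 82331632 to 82403222, minus strand, GRCm38) was the most abundant in CPM and had the largest log2 fold change. In saline tumors 1, 3, 4 and 5 it measured 11.9, 14.8, 8.89 and 6.73 CPM. In PFSUV-IMQ tumors 1, 2, 3 and 4 it measured 39.7, 96.8, 51.2 and 53.5 CPM. The groups did not overlap, and the lowest treated tumor was well above the highest saline tumor. The ratio of the group means was 5.70, and the log2 fold change was 2.51 (95% interval 1.75 to 3.26, adjusted p = 0.00432, edgeR). No overlap between exons of Il15 and other genes is annotated. Its call was kept in each of the 8 fits that left out a tumor, with log2 fold changes from 2.16 to 2.71 and adjusted p values up to 0.0239. The lowest of these values, 2.16, was obtained without PFSUV-IMQ tumor 2.

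Il27 (ENSMUSG00000044701, chromosome 7, 126589010 to 126594941, minus strand), which encodes the cytokine-like chain p28, had little RNA in saline tumors. Those tumors measured 0.968, 0.843, 1.72 and 1.03 CPM, from 19 to 40 counts each. After PFSUV-IMQ the values were 3.53, 12.6, 5.02 and 3.75 CPM, from 64 to 181 counts each. Tumor 2 held more than any other of its group, and the other 3 also lay above all saline tumors. The ratio of the means was 5.47 and the log2 fold change 2.44 (95% interval 1.37 to 3.51, adjusted p = 0.0286, edgeR). Without PFSUV-IMQ tumor 2 the log2 fold change was 1.83 and the gene was still called (adjusted p = 0.0248, edgeR), whereas the adjusted p was between 0.0543 and 0.104 without saline tumor 1, 3 or 5 or PFSUV-IMQ tumor 3. Exons of Apobr, on the opposite strand, cover 10.1% of the Il27 exon bases, and whether reads were counted by strand is not given in the sources used here. The means of Apobr itself were 66.8 and 79.2 CPM, and its log2 fold change was 0.25 (adjusted p = 0.724, edgeR).

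Ebi3 (ENSMUSG00000003206, chromosome 17, 55952640 to 55957022, plus strand), the receptor-like chain that pairs with p28 in IL-27, was not called. It measured 1.94, 2.21, 3.78 and 3.04 CPM in the saline tumors and 2.92, 4.68, 1.90 and 1.54 CPM in the PFSUV-IMQ tumors. The groups overlapped fully, with both the lowest and the highest tumor in the treated group. The log2 fold change was 0.01 (95% interval -0.88 to 0.89, adjusted p = 0.997, edgeR) and it turned below 0 when PFSUV-IMQ tumor 2 was left out (-0.38). Exons of Gm16712, on the opposite strand, cover 23.4% of its exon bases, and that gene averaged 0.439 and 0.291 CPM. The kappa-B match of the promoter printed above belongs to this gene.

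Il12b (ENSMUSG00000004296, chromosome 11, 44400063 to 44414033, plus strand), the receptor-like chain p40 shared by IL-12 and IL-23, also overlapped between groups. Saline tumors held 2.17, 5.34, 2.75 and 3.20 CPM, and PFSUV-IMQ tumors 3.15, 7.20, 1.84 and 1.65 CPM. Only PFSUV-IMQ tumor 2 lay above the highest saline tumor, and tumors 3 and 4 lay below the lowest. The log2 fold change was 0.03 (95% interval -1.09 to 1.15, adjusted p = 0.991, edgeR), and it was -0.62 without PFSUV-IMQ tumor 2 (adjusted p = 0.538). Its direction also turned without saline tumor 1 or 4. Il12a (ENSMUSG00000027776, chromosome 3, 68690644 to 68698547, plus strand), the chain p35, did not pass the filter on low counts. It had 3, 11, 14 and 0 counts in the saline tumors and 1, 12, 0 and 4 counts in the PFSUV-IMQ tumors. With 4 counts or fewer in 5 of the 8 tumors, a difference was not detectable at this depth.

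Among the receptor chains, Il15ra (ENSMUSG00000023206, chromosome 2, 11705290 to 11734317, plus strand), which presents IL-15, had the largest log2 fold change, and it was not called. Saline tumors measured 11.6, 16.8, 28.9 and 8.15 CPM and PFSUV-IMQ tumors 21.6, 111, 38.03 and 36.9 CPM. Saline tumor 4 lay above PFSUV-IMQ tumor 1, so the groups overlapped. The log2 fold change was 1.66 (95% interval 0.45 to 2.87, adjusted p = 0.193, edgeR), and it fell to 0.96 without PFSUV-IMQ tumor 2 (adjusted p = 0.331). DESeq2, with which 3.12% of genes were called higher and 0.670% lower, gave it an adjusted p of 0.0311, past the threshold. Its promoter windows, printed above, held none of the 3 motifs.

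Il12rb1 (ENSMUSG00000000791, chromosome 8, 70808449 to 70821424, plus strand), a chain shared by the receptors of IL-12 and IL-23, was the 1 receptor gene whose groups did not overlap. The saline tumors gave 4.19, 5.69, 4.55 and 5.16 CPM, and the PFSUV-IMQ tumors 13.6, 26.2, 9.76 and 8.16 CPM. The log2 fold change was 1.56 (95% interval 0.75 to 2.36), with an adjusted p of 0.0581 by edgeR, which missed the threshold. DESeq2 gave an adjusted p of 0.00209, edgeR without a filter on low counts 0.0148, and edgeR without PFSUV-IMQ tumor 4 0.0470. It was not called in the other 7 of the 8 fits that left out a tumor, with adjusted p values up to 0.169 by edgeR. Of the 7 other alternatives, 5 did not call it. Without PFSUV-IMQ tumor 2 the log2 fold change was 1.08 (adjusted p = 0.0640). In all, 3 of the 9 members tested had every PFSUV-IMQ tumor above every saline tumor, and among all genes tested this was so for 6.00%. The reverse order held for no member and for 3.28% of all genes.

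Il12rb2 (ENSMUSG00000018341, chromosome 6, 67291318 to 67376188, minus strand), the chain specific to the IL-12 receptor, was barely counted, with 6 to 18 counts per tumor. Its group means were 0.586 ± 0.191 CPM in saline and 0.811 ± 0.089 CPM in PFSUV-IMQ tumors (SD, n = 4 each). Its log2 fold change was 0.46 (95% interval -0.29 to 1.21, adjusted p = 0.664, edgeR). Exons of Serbp1, which lies on the opposite strand and averaged 516 and 493 CPM, cover 40.0% of its exon bases. Counting without strand could not separate the reads of these genes within the shared bases.

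Il2rb (ENSMUSG00000068227, chromosome 15, 78479256 to 78495271, minus strand), through which IL-15 and IL-2 signal, stood at 30.1, 43.1, 34.7 and 15.0 CPM in saline tumors and at 39.5, 45.1, 16.7 and 20.3 CPM in treated ones. Both groups covered nearly the same range, and the log2 fold change was -0.02 (95% interval -0.89 to 0.86, adjusted p = 0.993, edgeR). Il2rg (ENSMUSG00000031304, chromosome X, 101264378 to 101268255, minus strand), the chain shared with the receptors of several other interleukins, gave 16.1, 25.0, 23.7 and 20.1 CPM in saline tumors and 36.9, 57.4, 26.7 and 24.4 CPM in treated ones. Only PFSUV-IMQ tumor 4 fell within the saline range. Its log2 fold change was 0.78 (95% interval 0.14 to 1.41, adjusted p = 0.263, edgeR), and 0.45 without tumor 2. The predicted gene Gm20489 shares 30.5% of the Il2rg exon bases on the same strand and had 0 to 2 counts per tumor.

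Markers of the cells that carry these receptors were measured beside them. The NK list of 9 genes summed to 18.2 to 52.7 CPM in saline tumors and 33.6 to 103 CPM in PFSUV-IMQ tumors. Of its genes 2, Klra8 and Klra4, were at 0 in every tumor, and none of its 6 tested genes was called by edgeR or DESeq2. Of these 6, 4 had log2 fold changes above 0 and 2 below. Klrk1 averaged 13.2 CPM in saline and 29.5 CPM in treated tumors (log2 fold change 1.16, adjusted p = 0.252, edgeR). Ncr1 averaged 0.998 and 0.331 CPM (log2 fold change -1.63, adjusted p = 0.325, edgeR), and the untested Klrb1c 0.206 and 0.0349 CPM. The 9 T cell markers summed to 70.1 to 159 and 75.5 to 183 CPM, with none called by edgeR. Among them Cd5 was lower in every treated tumor than in any saline tumor (log2 fold change -1.17, adjusted p = 0.160 by edgeR), and DESeq2 called it lower (adjusted p = 0.0433). For the cells known to make these cytokines, 8 dendritic cell markers summed to 88.9 to 124 CPM in saline and 73.5 to 116 CPM in PFSUV-IMQ tumors, and 9 macrophage and monocyte markers to 1201 to 1954 and 849 to 1702 CPM. None of these 17 genes was called by edgeR, and 6 of the 8 dendritic cell markers and 7 of the 9 macrophage and monocyte markers had log2 fold changes below 0. DESeq2 called 3 of the 17. These were Ly6c2, a marker of inflammatory monocytes, as higher (adjusted p = 0.00102) and Ccr2 (adjusted p = 0.0118) and Flt3 (adjusted p = 0.0334) as lower. By edgeR their log2 fold changes were 1.88, -1.23 and -1.14 (adjusted p = 0.0633, 0.0890 and 0.147), and Ly6c2, at 3.36 to 7.65 CPM in saline and 9.43 to 34.8 CPM in treated tumors, did not overlap between groups. Cd14 also did not overlap, at 81.9 to 86.5 CPM in saline and 105 to 154 CPM in treated tumors, with a log2 fold change of 0.63. That of Clec4f was -0.96. Their adjusted p values were 0.0489 and 0.0337 by DESeq2 and 0.104 and 0.122 by edgeR, and neither passed the limit on fold change. The single markers named in this paragraph were picked after their values had been seen. B cell markers (5 genes) summed to 9.03 to 16.7 and 6.19 to 31.2 CPM, and neutrophil markers (6 genes, of which 4 were tested) to 15.5 to 63.3 and 30.1 to 137 CPM, with none called by edgeR or DESeq2. PFSUV-IMQ tumor 2 had the highest NK, T cell, macrophage, B cell and neutrophil sums of its group. The part of these cells in the results above was not tested.

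To set cytokine against receptor genes, and the chains of a dimer against each other, the difference of log2 CPM between the genes of a pair was taken within each tumor. Of 9 pairs listed, 7 could be tested. The comparison used an exact permutation test, two-sided, which with 4 tumors against 4 cannot go below p = 0.0286, and p values were adjusted over the 7 pairs. Il27 stood below Ebi3 in every saline tumor, with differences from -1.47 to -0.93 on the log2 scale, and above it in every PFSUV-IMQ tumor, with differences from 0.26 to 1.41. The mean difference moved from -1.20 ± 0.24 to 1.07 ± 0.54 (SD, n = 4 each), a shift of 2.26 (standard error 0.29, exact permutation p = 0.0286, adjusted p = 0.05). The groups did not overlap, and the shift was 2.06 to 2.53 in every alternative run.

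**Figure D2:**
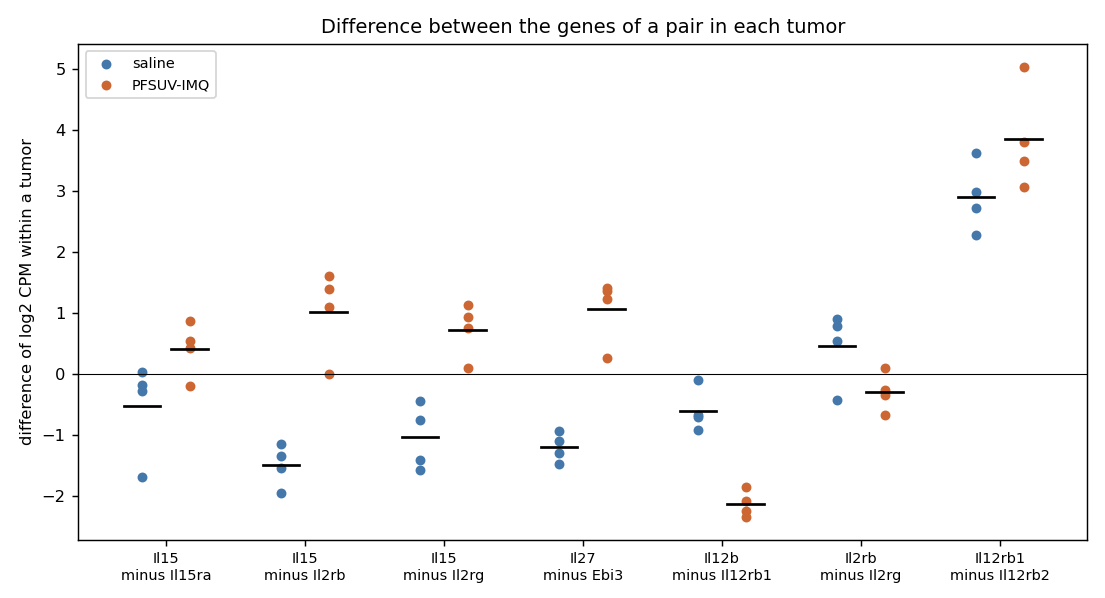
Difference of log2 CPM between the genes of each of 7 pairs in each saline tumor (blue) and PFSUV-IMQ tumor (orange), with black bars for group means. The groups do not overlap for Il15 minus Il2rb, Il15 minus Il2rg, Il27 minus Ebi3 and Il12b minus Il12rb1, and they overlap for the other 3 pairs.

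Il15 moved away from the signaling chains of its receptor in the same way. Its difference from Il2rb went from -1.49 ± 0.35 after saline to 1.03 ± 0.71 after PFSUV-IMQ, a shift of 2.52, and its difference from Il2rg from -1.04 ± 0.54 to 0.73 ± 0.44, a shift of 1.77 (SD, n = 4 each, exact permutation p = 0.0286, adjusted p = 0.05 for both). Il12b minus Il12rb1 shifted the other way, by -1.53, from -0.60 ± 0.36 to -2.13 ± 0.21 (SD, n = 4 each, exact permutation p = 0.0286, adjusted p = 0.05). These p values are the smallest the design allows, and adjusted they lie at the threshold and not under it. The pairs were chosen with earlier results of these data known. Ebi3, Il2rb and Il12b themselves had log2 fold changes of 0.01, -0.02 and 0.03. The shifts of their pairs therefore mostly restate the changes of Il27, Il15 and Il12rb1 given above and are not separate support for them. Without saline tumor 4 the exact permutation p for Il15 minus Il2rb was 0.0571, and without saline tumor 5 that for Il2rb minus Il2rg was 0.0286. For Il15 against Il15ra the shift was 0.94 with a standard error of 0.45, and the groups overlapped (exact permutation p = 0.0857, adjusted p = 0.114). The 2 remaining pairs, Il2rb minus Il2rg at -0.75 (standard error 0.34) and Il12rb1 minus Il12rb2 at 0.95 (standard error 0.51), had an exact permutation p of 0.114 each and an adjusted p of 0.114. A p of this size does not show that the genes of those pairs changed alike.

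Levels were compared between genes as CPM per kilobase of exon (RPKM), computed here from the same scaled counts. After saline the order of the means was Il2rg (8.89 ± 1.67 RPKM), Il2rb (7.17 ± 2.75), Il15 (4.68 ± 1.56), Il15ra (3.68 ± 2.04), Ebi3 (2.38 ± 0.72), Il12b (1.71 ± 0.70), Il12rb1 (1.19 ± 0.16), Il27 (1.12 ± 0.38), Il12a (0.166 ± 0.157) and Il12rb2 (0.154 ± 0.050) (SD, n = 4 each). Neighbors in this order overlapped, except that Il27 lay above Il12a in every tumor. After PFSUV-IMQ Il15 came first with 26.7 ± 11.1 RPKM, followed by Il2rg (15.2 ± 6.31), Il15ra (11.7 ± 8.99), Il2rb (7.10 ± 3.27), Il27 (6.11 ± 4.23), Il12rb1 (3.52 ± 1.99), Ebi3 (2.39 ± 1.22), Il12b (1.76 ± 1.31), Il12rb2 (0.214 ± 0.023) and Il12a (0.164 ± 0.226) (SD, n = 4 each). Il15 thus moved from rank 3 to rank 1 and Il27 from rank 8 to rank 5, and in this group only Il12b and Il12rb2 did not overlap as neighbors. The lengths include exon bases shared with other genes (30.5% for Il2rg, 40.0% for Il12rb2, 23.4% for Ebi3 and 10.1% for Il27). How reads in those bases were counted is not given, and its effect on the order was not tested. Per length, the mean of Il27 thus passed that of its partner Ebi3, while both IL-12 chains stayed at or under 3.66 RPKM in every tumor.

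**Figure D3:**
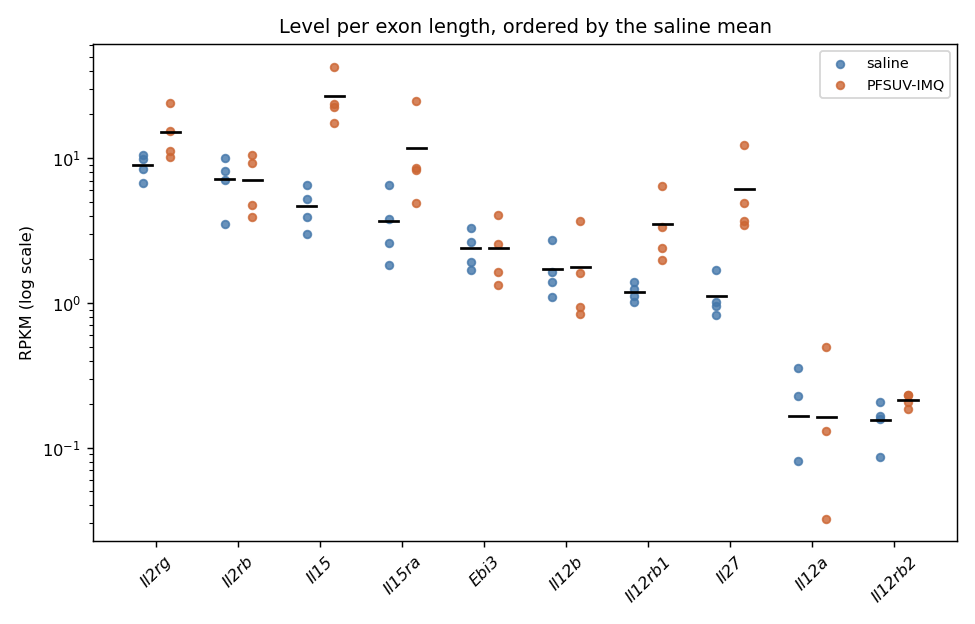
Level per exon length (RPKM, log axis) of the 10 axis genes in saline tumors (blue) and PFSUV-IMQ tumors (orange), ordered by the saline mean, with black bars for group means. Values of 0, which occur for Il12a in 1 tumor of each group, cannot be drawn on a log axis. Il15 has the highest mean after PFSUV-IMQ, at 26.7 RPKM.

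The other genes of these pathways were taken from 5 lists arranged by role, with 40 genes counted here. Of these, 35 passed the filter, 2 rose and none fell by edgeR, against 2.26% and 0.200% of all genes tested, and the median log2 fold change was 0.39, against -0.03 for all genes. Among 6 tested ligands and subunits, Il6, a cytokine of the same helical family, rose. Its means were 0.567 ± 0.228 CPM in saline and 3.52 ± 2.52 CPM in treated tumors (SD, n = 4 each), and its log2 fold change was 2.61 (adjusted p = 0.0374, edgeR). Its call was kept in only 1 of the 8 fits that left out a tumor. Il18, which acts beside IL-12 on T and NK cells, and Clcf1 had log2 fold changes of 0.84 and 0.57 and were not called (adjusted p = 0.369 and 0.481, edgeR). None of the 8 tested receptor chains was called by edgeR or DESeq2. The largest values there were 0.68 for Il2ra, 0.51 for Il21r and 0.47 for Il18rap (adjusted p = 0.627, 0.454 and 0.655, edgeR). Il27ra and Il6st, the chains through which IL-27 signals, had log2 fold changes of -0.24 (95% interval -1.02 to 0.54) and -0.03 (95% interval -0.52 to 0.45), and were named after their values had been seen.

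**Figure D4:**
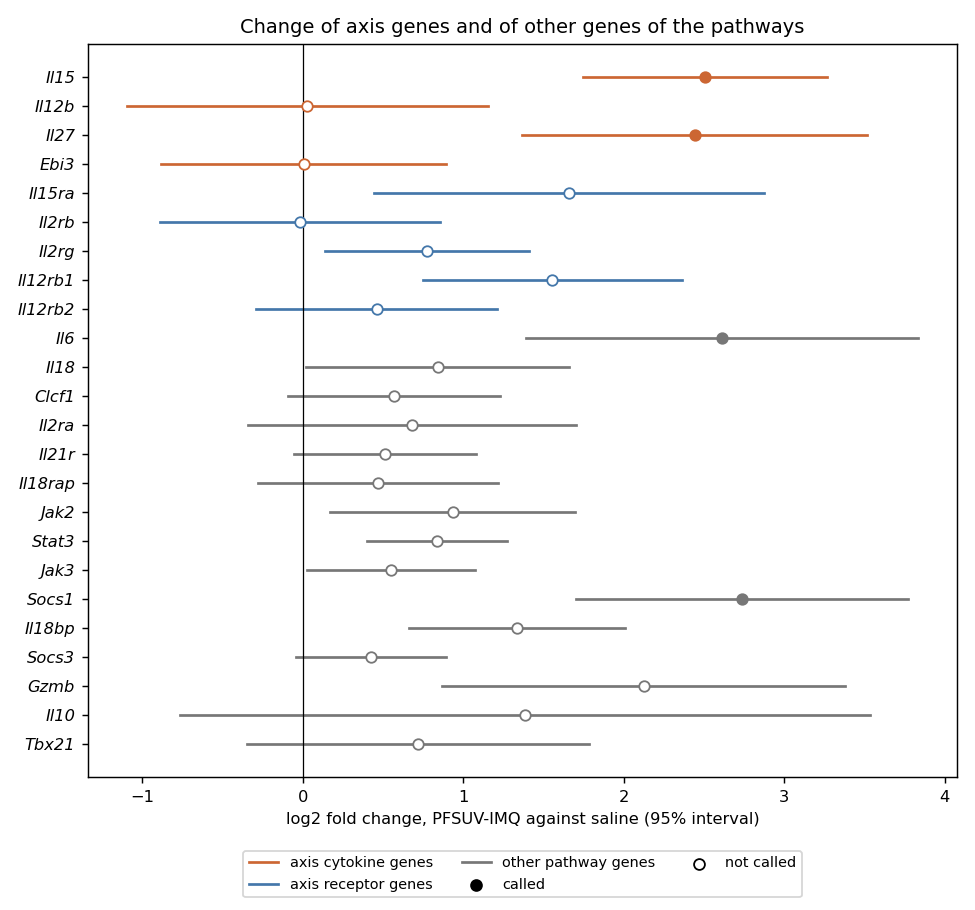
Log2 fold change of PFSUV-IMQ against saline, with its 95% interval, for the 9 axis genes tested (orange for cytokine, blue for receptor genes) and 15 other genes of the pathways (gray). Filled points mark the called genes, which are Il15, Il27, Il6 and Socs1.

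None of the 8 kinases and STATs counted here, which carry the signal from these receptors, was called by edgeR or DESeq2. Stat3, a transducer of IL-6 and IL-27, had a log2 fold change of 0.84 (adjusted p = 0.0578, edgeR), with every PFSUV-IMQ tumor above every saline tumor, from 166.9 to 208 CPM in saline tumors and from 287 to 445 CPM in treated ones. The kinase genes Jak2 and Jak3 had log2 fold changes of 0.93 and 0.55 (adjusted p = 0.262 and 0.350, edgeR). STAT4 is the main transducer of IL-12 and STAT5 that of IL-15, and Stat4, Stat5a and Stat5b, named after their values had been seen, had log2 fold changes of -0.29, -0.17 and -0.065.

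Among 5 inhibitors and feedback genes, Socs1, which blocks JAK kinases, was called. Saline tumors gave 5.76, 10.7, 6.96 and 5.65 CPM, and treated tumors 29.1, 102, 31.9 and 31.0 CPM. The log2 fold change was 2.74 (standard error 0.46, adjusted p = 0.0137, edgeR). All treated tumors lay above all saline tumors, and the value without tumor 2 was 2.06. Without saline tumor 1 the call was lost (adjusted p = 0.0627). Il18bp, the secreted inhibitor of IL-18, had a log2 fold change of 1.33 (adjusted p = 0.0508, edgeR), without overlap between groups. It passed in 5 of the 7 alternatives other than leaving out a tumor, with adjusted p values from 0.00289 (DESeq2) to 0.0499 (upper-quartile normalization), and in none of the 8 fits with a tumor left out. Socs3 had a log2 fold change of 0.42 (adjusted p = 0.452, edgeR). None of 8 downstream target genes was called by edgeR. The largest value was that of Gzmb, the protease granzyme B of killer cells, at 2.12 (adjusted p = 0.0985, edgeR), with no overlap between groups. DESeq2 (adjusted p = 0.00298) and edgeR without a filter on low counts (adjusted p = 0.0145) called it, and the value was 1.36 without PFSUV-IMQ tumor 2. Next were the cytokine gene Il10 at 1.38 (adjusted p = 0.642) and Tbx21, the T-bet transcription factor, at 0.72 (adjusted p = 0.623). Ifng, the hallmark target of IL-12, named after its values had been seen, had means of 2.25 ± 0.996 CPM in saline and 3.50 ± 1.45 CPM in treated tumors (SD, n = 4 each, adjusted p = 0.629, edgeR).

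Genes with the most similar pattern over the 8 tumors were sought by the root mean square difference of log2 CPM, each gene centered on its own mean, among 13102 genes with a mean of at least 1 on that scale. For Il15 the nearest were Gbp3 (difference 0.15), Ifi47 (0.20) and Enpp4 (0.20), with log2 fold changes of 2.37, 2.48 and 2.25. For Il27 they were BC147527 (0.13), Oas1c (0.22) and Rnf135 (0.26), with log2 fold changes of 2.35, 2.30 and 1.996. Ebi3 was nearest to Ninj1 (0.12), Cfp (0.13) and Myh10 (0.15), and Il12b to Synpo2 (0.23), Rhoh (0.28) and Gimap1 (0.28), and these 6 genes had log2 fold changes from -0.18 to 0.17. These distances are descriptions that share the same 8 libraries, and no test was made of them.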

How the data were processed

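RNA-seq counts per gene were deposited by the authors for 8 tumors, without normalization. The paper's methods name TopHat and HTSeq, whereas the submitters' processing notes name Trimmomatic 0.38, HISAT2 2.1.0 and featureCounts 2.0.0. The deposited normalized table holds signal values, which are the same counts divided by 1 DESeq2 size factor per tumor, and served here for gene symbols only. All 55536 identifiers are in GENCODE M21 of GRCm38, the source of coordinates and exon lengths.

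The tests across genes used edgeR 4.0.16 (TMM, default filter, quasi-likelihood test, standard error taken as the fold change over the root of F) and DESeq2 1.42.0 under R 4.3.3. Permutation tests used Python 3.11.15 and log2 CPM (prior count 2). Values are of 4 tumors per group. The tests across genes set the group difference against the variation between these tumors, estimated with information shared across genes. The permutation tests set it against regroupings of the same tumors. The members, lists and pairs were chosen with earlier results of these data known. Genes of the pathway lists that are not reported here are left out of the counts of those lists. All members are named, with the called genes and the 3 with the largest change of each list and the 3 nearest genes of each cytokine member. Alternatives were other size factors, filters and tools, calls by adjusted p alone, a replicate block, a prior count of 0.5 for the pairs, and each tumor left out.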

Additional observations from a re-analysis of the deposited data

Results flagged for a closer look

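Values were examined in 50 groups of 4 tumors, for the 10 axis genes and 15 other named genes, and 9 groups held a tumor far from the other 3. The nominal chance rate of the rule is about 1 in 20 groups. The 15 other genes were named for a call or for the size of their change in these same tumors. That rate is therefore no fair measure for their groups. PFSUV-IMQ tumor 2 was the high one in 8 of them, and these 8 share that 1 library, so they are not independent of each other. In that tumor Il27 measured 12.6 CPM, Il18 25.2 CPM, Il2ra 14.0 CPM and Il18rap 14.7 CPM. Stat3 was at 445 CPM, Socs1 at 102 CPM, Gzmb at 83.8 CPM and Il10 at 3.42 CPM in the same tumor. The remaining one was Jak3 in saline tumor 5, at 69.9 CPM.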

How the results depend on the processing

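Both called axis genes, Il15 and Il27, were called in the 6 alternatives that used all 8 tumors and with the replicate block. With a tumor left out, 1 to 3 axis genes and 0 to 2 other pathway genes were called higher, and 0 in each list were called lower, and over all genes 197 to 375 were called higher and 8 to 38 lower. With DESeq2, 619 genes were called higher and 133 lower, including 4 axis genes and 4 other pathway genes higher. Without a filter on low counts 63 genes were called lower and 4 other pathway genes higher. Numbers 1, 3 and 4 are shared between the groups, yet each tumor came from its own mouse. The deviations of same-numbered tumors correlated at 0.29, -0.27 and -0.32. These 3 correlations are too few to settle whether the numbers pair the tumors, and the reported fit did not pair them. With the replicate block, in which tumors of unshared numbers carry no weight, 267 genes were called lower and 2 axis genes higher, Il12b was at -0.58, Ebi3 at -0.30 and Il10 at -0.33, with opposite signs to the reported fit. Upper-quartile normalization gave -0.065 for Il12b and -0.079 for Ebi3. Leaving out a tumor moved Il12b between -0.62 and 0.35, Ebi3 between -0.38 and 0.22, Il2rb between -0.29 and 0.19 and Il10 between -0.20 and 1.90. The cause of these changes was not tested. Depth limits Il12a and Il12rb2, with at most 14 and 18 counts per tumor.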
